A study of Rattus norvegicus with 28 samples.

Results

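Among the 56810 accessible regions measured in rat dorsal root ganglion (DRG), 542 had moved away from the naïve level in opposite directions in a nerve injury model and in a hind paw inflammation model. These regions were chosen by their measured group means. A region was taken when the mean of the 6 CCI libraries minus the mean of the 3 naïve libraries was at least 0.3 on the log2 scale in 1 direction and the mean of the 6 CFA libraries minus the naïve mean was at least 0.3 in the other. In 363 regions accessibility was higher after CCI and lower after CFA, and in 179 it was lower after CCI and higher after CFA. Because the changes selected the regions, the changes, their p-values and the separation of the groups are given as descriptions, with no test of the opposition itself.

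All groups were adult male Sprague-Dawley rats aged 12 weeks, and each library came from the lumbar DRGs of 1 rat, described in the paper as ipsilateral. The CCI group was taken 14 days after chronic constriction injury, in which loose silk ligatures are tied around the sciatic nerve. The CFA group was taken 48 h after complete Freund's adjuvant, an oil emulsion of killed mycobacteria, was injected into the plantar surface of the hind paw. Naïve rats were untreated and not sham operated, so surgery, injury and time of sampling cannot be told apart within a model. Both comparisons used the same 3 naïve libraries, and the 2 tables were normalized separately, which is why the naïve libraries have slightly different values in each. Whole ganglia were processed, so fewer cells of a type and less signal per cell cannot be told apart.

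The DRG holds the cell bodies of the sensory neurons that carry touch and pain from the limb, wrapped by satellite glia and mixed with Schwann cells, fibroblasts and macrophages. ATAC-seq uses the Tn5 transposase to cut DNA that is not packed into nucleosomes, so that promoters, enhancers and other bound regions appear as stretches of dense insertions. After nerve damage, sensory neurons and their glia switch to an injury and regeneration state, while inflammation of the paw sensitizes neurons whose axons are largely intact. A region that opens in one setting and closes in the other is therefore a place where the models can be set side by side.

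Changes in these regions were modest. The 363 regions higher after CCI and lower after CFA had a median CCI change of 0.46, between 0.30 and 1.12, and a median CFA change of -0.38, between -0.95 and -0.30. The 179 regions of the reverse pattern had a median CCI change of -0.37, between -1.33 and -0.30, and a median CFA change of 0.38, between 0.30 and 0.86. Over all 56810 regions the medians were -0.04 and 0.01. With each change centred on these medians, the rule took 449 and 112 regions, 112 of them among the 179 and all of the 363 among the 449. Most members therefore sat close to the edge of the rule, and the smaller of the 2 changes was below 0.4 in 278 of the first group (76.6%) and in 151 of the second (84.4%). It reached 0.5 in 22 and 3 regions. The 363 regions made up 3.74% of the 9710 regions with a CCI change of at least 0.3 and 4.2% of the 8635 with a CFA change of -0.3 or lower. The 179 regions made up 1.65% of the 10830 regions with a CCI change of -0.3 or lower and 2.13% of the 8412 with a CFA change of at least 0.3. Of all 56810 regions, 8635 had a CFA change of -0.3 or lower and 8412 one of at least 0.3. Both are larger shares than 3.74% and 1.65%, so an opposite CFA change was rarer among regions changed after CCI than among all regions. Both changes use the same naïve libraries, and this rarity was not tested.

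**Figure D1:**
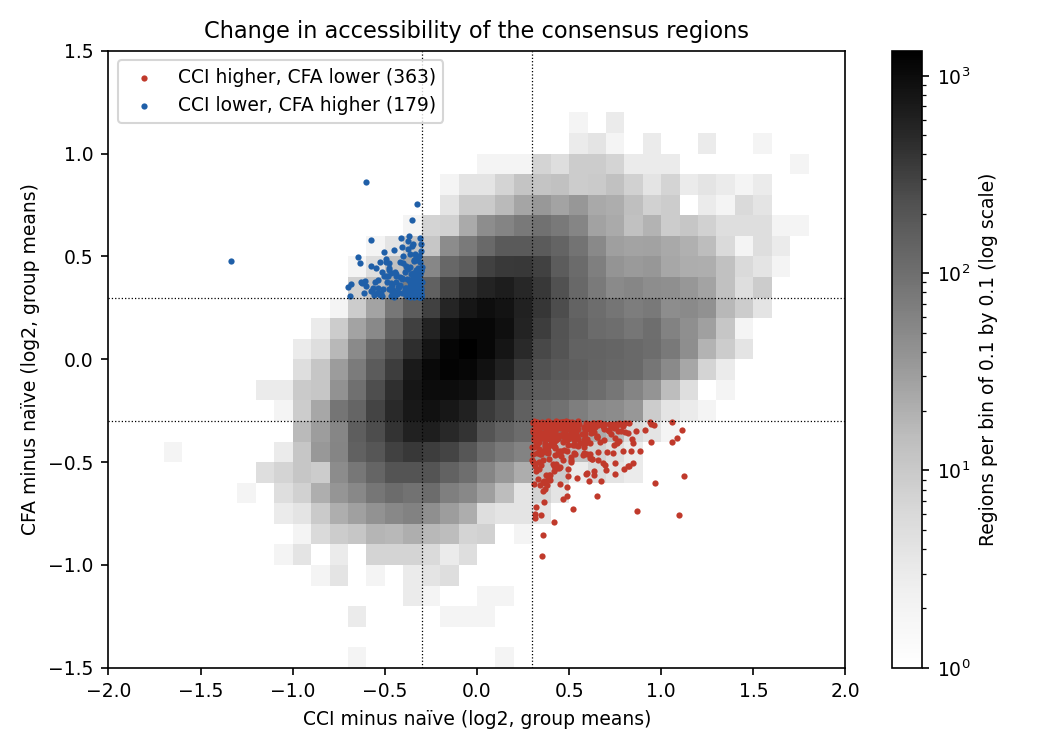
Change after CCI (horizontal axis) and after CFA (vertical axis) against naïve, as differences of group means on the log2 scale. Grey bins count all regions on a log scale, dotted lines mark changes of 0.3 in size, 32 regions lie outside the axes, and the coloured points are the 363 and 179 regions of opposite change at the outer edge of the cloud.

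The standard error of a change, from a linear model fitted to every region with limma, had a median of 0.28 after CCI and 0.22 after CFA in the regions higher after CCI and lower after CFA. It was 0.25 and 0.17 in the reverse group, against 0.21 and 0.17 over all regions. A change of 0.3 was thus less than 2 standard errors of a typical member. The SD among the 6 CCI libraries had a median of 0.50 in the first group and 0.41 in the second, compared with 0.32 over all regions. Among the 6 CFA libraries the corresponding medians were 0.37, 0.21 and 0.24. The regions of opposite change were therefore more variable between CCI rats than regions in general, while those higher after CFA varied between CFA rats about as much as the rest.

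The CCI libraries did not contribute equally. In the 363 regions higher after CCI, the median difference from the naïve mean was 0.90 in CCI replicate 3, 0.83 in replicate 6, 0.63 in replicate 2 and 0.58 in replicate 4. It was only 0.08 in replicates 1 and 5, in which 215 and 203 of the 363 regions lay above the naïve mean. In the 179 regions lower after CCI, nearly the same order appeared with the sign turned. Replicates 3, 6, 4 and 2 had medians of -0.55, -0.51, -0.44 and -0.40, and replicates 1 and 5 had -0.15 and -0.14. The naïve libraries scattered less, with medians from -0.03 to 0.09 in the first group and from -0.12 to 0.10 in the second. Naïve replicate 2 lay on the CCI side in both groups.

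The CFA libraries were more alike. In the 363 regions their medians ran from -0.53 in CFA replicate 3 to -0.21 in replicate 6, and between 263 and 340 regions lay below the naïve mean in each library. In the 179 regions the medians ran from 0.35 in CFA library a and replicate 6 to 0.47 in replicate 3, with 167 to 175 regions above the naïve mean in each. Of the CFA libraries, 2 carry no replicate number that can be matched to the labels and are called a and b here. All 12 pain libraries lay on the side of their group's change in 31 of the 363 regions and in 40 of the 179. The same patterns were found in 0.136% and 0.37% of all regions, which are given for scale only, since the members were selected on these values.

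**Figure D2:**
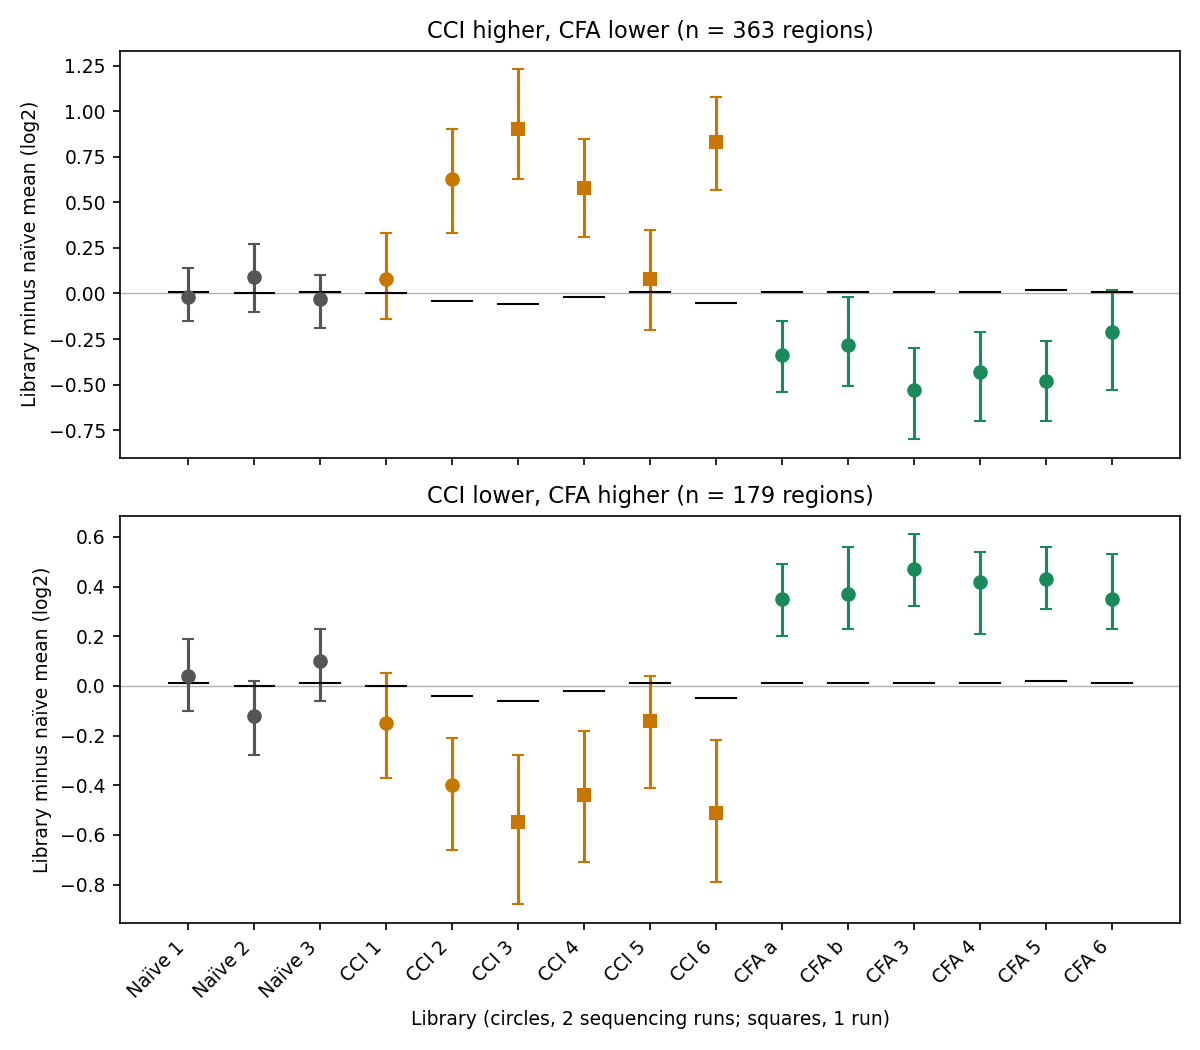
Median difference of each library from the naïve mean (log2) over the regions of each direction, with bars for the middle 50% of regions and short black lines for the median of all regions. CCI replicates 1 and 5 sit near 0 in both panels, at 0.08 and 0.08 above and at -0.15 and -0.14 below, while every CFA library has its median on the opposite side from the CCI libraries.

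A measure of library contrast moved with the medians of the CCI libraries. Normalization keeps the order of the regions in a library, and the distinct values, counted from the lowest, form steps that rise with the reads. The step number at the 90th percentile of regions divided by that at the 25th percentile, called the signal ratio here, says how far strong regions stood above weak ones. It was 5.24 in CCI replicate 3, 5.32 in replicate 6, 6.20 in replicate 4, 6.24 in replicate 2, 7.39 in replicate 1 and 7.77 in replicate 5. The naïve libraries had 7.97 to 10.2 and the CFA libraries 8.38 to 10.2. The CCI libraries with the lowest ratio had the largest differences from naïve in both groups of regions, and the part of library contrast in the result was not tested. According to the labels, CCI replicates 3 to 6 were sequenced in 1 run and all other libraries in 2. CCI replicates 1 and 2, the pair sequenced like the naïve libraries, are part of the mean that selected the members and differ from each other as given above. With only these kept, the median CCI change was 0.35 over the 363 regions and -0.29 over the 179, and 207 and 84 of them still met the rule. The part of the sequencing runs in the result was not tested.

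Few members separated the groups fully. All 6 CCI libraries lay above all 3 naïve libraries in 23 of the 363 regions, where 3.85% of all regions did so, and all 6 CFA libraries lay below in 32, where 5.65% of all regions did. Of the 179 regions, all CCI libraries lay below naïve in 8 (5.26% of all regions) and all CFA libraries above in 36 (5.39% of all regions). Both held in 3 of the 363 regions and in 5 of the 179. Over the whole table the corresponding patterns were found in 0.0106% and 0.0282% of regions. These shares of all regions are printed for scale only, since the members were selected on the same values. When each of the 15 libraries was left out in turn, 44 of the 363 regions (12.1%) and 19 of the 179 (10.6%) met the rule every time.

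The limma model also gave few calls at the study's unadjusted p of 0.001. After CCI, 1 of the 363 regions passed it (0.75% of all regions were called higher) and 0 of the 179 did (0.16% of all regions were called lower). After CFA, 1 of the 363 regions passed (0.556% of all regions were called lower) and 4 of the 179 (0.565% of all regions were called higher). Not a single region passed in both comparisons by limma. At an unadjusted p of 0.05, 95 and 22 regions passed after CCI, where 8.59% of all regions were called higher and 7.45% lower. After CFA, 98 and 97 passed, where 9.45% of all regions were called lower and 9.5% higher. In both comparisons 23 and 14 members passed. Over all regions, members included, 23 (0.0405%) and 16 (0.0282%) passed in both with these directions. The members were all of the former and 14 of the latter, so these shares are no separate background. After Benjamini-Hochberg adjustment over all regions in limma, 0 members passed 0.05 in either comparison, and the smallest adjusted p was 0.101 after CCI and 0.0858 after CFA. These values are descriptions of regions picked for their size of change.

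The 3 regions in which CCI libraries lay above and CFA libraries below every naïve library are on chromosomes 8, 4 and 11. At chr8:40813078-40813545 (rn6, 467 bp), the CCI table had naïve values of 4.60, 4.61 and 4.26 and CCI values of 5.0, 5.05, 5.43, 4.95, 4.73 and 5.37 in replicates 1 to 6. The CFA table had naïve values of 4.79, 4.81 and 4.44 and CFA values of 4.06, 4.22, 4.17, 3.73, 4.43 and 4.16. Both models cleared the naïve range, though CFA replicate 5, at 4.43, did so by very little. The CCI mean was 5.09 ± 0.26 (SD, n = 6) against 4.49 ± 0.20 (n = 3), a change of 0.60 with a standard error of 0.19. The CFA mean was 4.13 ± 0.23 (n = 6) against 4.68 ± 0.21 (n = 3), a change of -0.55 with a standard error of 0.16.

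At chr4:54757565-54757872, a region of 307 bp, the naïve values were tight at 4.26, 4.37 and 4.44, and the CCI values ran from 4.62 to 4.93. In the CFA table the naïve values were 4.43, 4.57 and 4.65 and the CFA values 3.87, 3.95, 2.63, 3.95, 4.30 and 3.85. A single library, CFA replicate 3 at 2.63, lay far under the others. The CCI change was 0.42 with a standard error of 0.15, and the CFA change was -0.79 with a standard error of 0.29.

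The third, chr11:7641329-7642702, is 1373 bp wide and more accessible. Its naïve values were 6.44, 6.48 and 6.61 and its CCI values ran from 6.65 in replicate 1 to 7.47 in replicate 3. After CFA the values lay between 6.46 and 6.76 against naïve values of 6.81, 6.86 and 7.01. The change was 0.47 after CCI, with a standard error of 0.20, and -0.31 after CFA, with a standard error of 0.11, so the CFA change only just met the rule.

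Ranked by the smaller of the 2 changes, the first region higher after CCI and lower after CFA was chr15:22399526-22400245 (719 bp). Naïve values in the CCI table were 6.68, 7.14 and 6.87, and the CCI values were 7.21, 8.12, 8.55, 8.17, 7.23 and 8.66 in replicates 1 to 6. All CCI libraries lay above naïve, replicates 1 and 5 by the least. In the CFA table the naïve values were 7.09, 7.61 and 7.30 and the CFA values 7.13, 7.41, 6.91, 5.29, 5.25 and 7.47 in libraries a and b and replicates 3 to 6. Its CFA change of -0.76 (standard error 0.51) rested on CFA replicates 4 and 5, and of the others only replicate 3, at 6.91, lay below the naïve range. The CCI change was 1.09 with a standard error of 0.32.

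A region of the same kind is chr8:15595838-15596503 (665 bp), which had the lowest CCI p of all members (limma p = 0.000353, adjusted p = 0.101). Its naïve values were 8.08, 8.84 and 8.40 and its CCI values 9.18, 9.79, 9.85, 9.65, 9.11 and 9.80, so that CCI lay above naïve in every library. After CFA, replicates 4 and 5 were at 7.26 and 7.06 and the others between 8.78 and 9.42, against naïve values of 8.65, 9.43 and 9.0. The change was 1.12 after CCI and -0.57 after CFA, with standard errors of 0.23 and 0.52. As at chr15:22399526-22400245, the same pair of CFA libraries set the CFA side.

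The next in rank were less dependent on single libraries. At chr19:27311564-27311830 (266 bp) the naïve values were 3.60, 3.43 and 3.87 and the CCI values 3.72, 4.74, 5.38, 4.73, 4.44 and 4.60. The CFA values were 3.01, 3.33, 3.01, 3.61, 3.18 and 3.18 against naïve values of 3.79, 3.60 and 4.07. A single library in each model, CCI replicate 1 and CFA replicate 4, fell inside the naïve range. The change was 0.97 after CCI, with a standard error of 0.285, and -0.60 after CFA, with a standard error of 0.161, and the adjusted p was 0.147 and 0.104.

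At chr7:651830-652369 (539 bp) the CCI values ran from 4.51 to 5.72 and the naïve values from 4.18 to 4.99, with a change of 0.65. After CFA the values ran from 3.50 to 4.61 against naïve values of 4.37 to 5.22, a change of -0.67. The wide region chr9:11761564-11763301 (1737 bp) had CCI values from 7.40 to 8.43 against 7.12 to 7.59 in naïve and CFA values from 6.83 to 7.66 against 7.58 to 8.12, with changes of 0.61 and -0.59. In both, the groups overlapped in each table. At chr1:74966738-74967270 (532 bp) the naïve libraries themselves spread from 3.26 to 4.51, and changes of 0.87 and -0.74 had standard errors of 0.38 and 0.35. At chr1:149322829-149323316 (487 bp) CCI replicate 1, at 4.30, lay under the naïve values of 4.54 to 4.95 and the other 5 ranged from 4.92 to 6.11. The CFA values there ran from 4.10 to 4.79 against 4.74 to 5.17 in naïve.

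Several members with a low p in 1 model were weak in the other. The lowest CFA p among the 363 regions was at chr4:29653198-29654252 (1054 bp; limma p = 0.000207, adjusted p = 0.0858), where the CFA values of 5.88 to 6.42 all lay under the naïve values of 6.76 to 7.14. In the CCI table the values there were 6.31, 5.68, 8.47, 7.81, 5.05 and 8.42 in replicates 1 to 6, with naïve values of 6.39 to 6.73. CCI replicates 3, 4 and 6 were thus far above naïve and replicates 1, 2 and 5 below it, and the CCI change of 0.36 had a standard error of 0.68. At chr16:75629280-75630441 (1161 bp) the CFA change was -0.68 with a standard error of 0.16, while the CCI values of 5.64 to 7.44 enclosed the naïve range of 5.89 to 6.06. At chr11:61194189-61194682 (493 bp) the CFA change was -0.60 with a standard error of 0.14, and the CCI change of 0.37 had a standard error of 0.22. On the CCI side, chr18:9816770-9817327 (557 bp) had CCI values of 4.67 to 5.42, all above the naïve values of 4.04 to 4.54. Its CFA values of 3.72 to 4.30 reached into the naïve range of 4.24 to 4.74, with changes of 0.79 and -0.45. The region chr5:24717792-24720088 (2296 bp) changed by 1.09 after CCI, with a standard error of 0.28, and by -0.38 after CFA, with a standard error of 0.33.

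In the reverse direction, 5 regions had all CCI libraries below and all CFA libraries above naïve. The one with the largest smaller change was chr10:50404822-50405081 (259 bp). Its naïve values in the CCI table were 5.37, 5.23 and 5.37, and its CCI values were 4.51, 5.12, 4.94, 4.36, 4.67 and 4.60 in replicates 1 to 6. In the CFA table, naïve was at 5.61, 5.46 and 5.62 and CFA at 6.02, 6.15, 5.90, 5.92, 5.75 and 5.85. Both models cleared the narrow naïve range, with CCI replicate 2 and CFA replicate 5 nearest to it. The means were 4.70 ± 0.28 after CCI (SD, n = 6) against 5.32 ± 0.08 in naïve (n = 3), and 5.93 ± 0.14 after CFA (n = 6) against 5.56 ± 0.09 in naïve (n = 3). It also had the lowest CCI p of the 179 regions (limma p = 0.00573, adjusted p = 0.15), and its changes were -0.62 and 0.37 with standard errors of 0.19 and 0.12.

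The most uniform of the 5 was chr1:85387114-85387652 (538 bp). The naïve values were 7.36, 7.14 and 7.31 in the CCI table, and the CCI values were 7.01, 6.86, 6.92, 6.81, 7.06 and 6.96. In the CFA table the naïve values were 7.86, 7.62 and 7.80 and the CFA values 8.04, 8.11, 8.12, 8.02, 8.18 and 8.02. In neither model did a single library stand apart. The CCI mean was 6.93 ± 0.09 against 7.27 ± 0.11 and the CFA mean 8.08 ± 0.06 against 7.76 ± 0.13 (SD), with changes of -0.34 and 0.32.

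Similar behaviour was seen at chr7:11163679-11163983 (304 bp), where the CCI values of 6.46 to 6.80 lay below naïve values of 6.82 to 6.99 and the CFA values of 7.53 to 7.81 above naïve values of 7.25 to 7.44. The changes were -0.30 and 0.37. At the narrow region chr3:6206560-6206750 (190 bp) the CCI values ran from 3.73 in replicate 3 to 4.80 in replicate 5 against naïve values of 4.81 to 4.99. The CFA values of 5.29 to 5.60 lay above naïve values of 5.02 to 5.22, and the changes were -0.46 and 0.34. At chr10:105350947-105351491 (544 bp) the naïve libraries were nearly equal, at 5.76, 5.78 and 5.72, and the CCI values ran from 4.36 in replicate 4 to 5.70 in replicate 5. Here 1 CCI library carried much of the change of -0.46, which had a standard error of 0.26, while the CFA change was 0.33 with a standard error of 0.13.

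**Figure D3:**
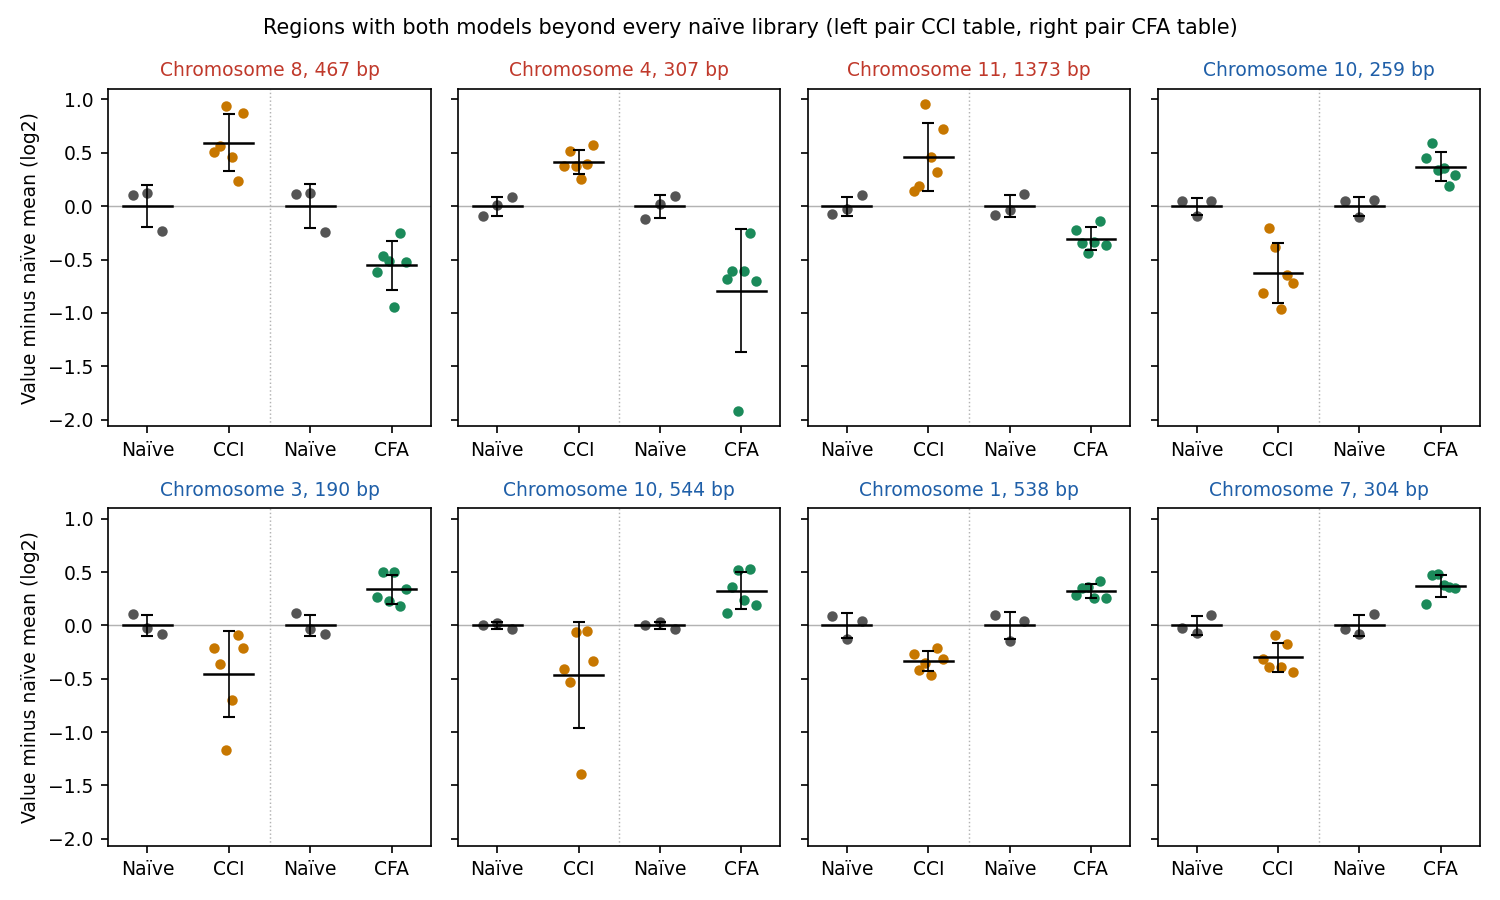
The 8 regions in which every CCI and every CFA library lay beyond all naïve libraries, on opposite sides. Each point is 1 library minus the naïve mean of its table (log2), lines and bars are means and SDs (n = 3 naïve, n = 6 per model), red titles mark regions higher after CCI and blue titles regions lower after CCI, and the farthest single point is CFA replicate 3 on chromosome 4, at a value of 2.63.

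By the smaller change, the first region lower after CCI and higher after CFA was chr7:123844764-123845014 (250 bp), with changes of -0.60 and 0.86. Its naïve values were 4.92, 3.61 and 5.05 in the CCI table, and the CCI values were 3.83, 3.57, 3.85, 3.95, 4.76 and 3.60. Naïve replicate 2 was as low as most CCI libraries, and the standard errors were 0.33 and 0.31. In the CFA table, the CFA values of 5.11 to 5.97 were set against naïve values of 5.15, 3.83 and 5.28. It met the rule whichever single library was left out.

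At chr6:27275499-27275797 (298 bp) the CFA values of 4.97 to 5.51 met the top of the naïve range of 4.43 to 4.98, and the CCI values spread from 2.82 to 4.62, for changes of -0.57 and 0.58. At chr10:56026651-56026935 (284 bp) the CFA values were 6.30 to 6.74 against 5.74 to 6.30 in naïve, and the CCI values 4.27 to 5.76 against 5.47 to 5.98. The CFA libraries stood close together in both regions, and the CCI libraries did not. At chr10:74873819-74874104 (285 bp) the CCI values were 4.92, 4.53, 4.44, 4.36, 4.37 and 4.99 against naïve values of 5.22, 4.99 and 5.52. The CFA values were 6.06, 5.96, 6.22, 6.01, 5.82 and 5.82 against naïve values of 5.45, 5.21 and 5.79. This region came close to full separation in both models, with CCI replicate 6 at the lowest naïve value, and its changes of -0.64 and 0.50 had standard errors of 0.20 and 0.15. At chr5:156208986-156209440 (454 bp) the changes were -0.50 and 0.49, with standard errors of 0.21 and 0.165.

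The largest single change among the 542 regions was at chr20:477582-477953 (371 bp), where accessibility fell by 1.33 after CCI. The CCI values were 4.18, 4.88, 0.73, 4.43, 0.37 and 0.22 in replicates 1 to 6, against naïve values of 4.02, 3.43 and 3.96. CCI replicates 3, 5 and 6 were close to the bottom of the scale, and the others were above every naïve library. The standard error of this change was 1.02. The CFA values there were 5.07, 4.92, 3.85, 3.84, 4.0 and 5.15 against 4.22, 3.60 and 4.16, a change of 0.48 with a standard error of 0.33.

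The members with the lowest CFA p in the reverse direction had tight CFA libraries. The lowest p was at chr12:50291251-50291806 (555 bp; limma p = 5.98e-05, adjusted p = 0.0858), where CFA values of 6.77 to 7.04 stood above naïve values of 6.16 to 6.32, a change of 0.68 with a standard error of 0.11. In the CCI table, replicate 1, at 6.0, was level with the highest of the naïve values of 5.85 to 6.0, and the others, at 5.0 to 5.79, lay below all of them. At chr10:16182754-16183075 (321 bp) the CFA change was 0.60 (limma p = 0.000409) and the CCI change -0.37, with CCI values of 4.54 to 5.70 overlapping naïve. At chr3:111613104-111613548 (444 bp) the CFA change was 0.55 (limma p = 0.00055) and the CCI change -0.40, with CCI replicates 5 and 6 at 5.16 inside the naïve range. At chr1:214893290-214893647 (357 bp), which had 1 of the lowest CCI p-values, CCI replicate 1 at 5.75 lay within the naïve range of 5.67 to 5.93 and the others at 5.0 to 5.27.

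At the threshold, the rule separated regions that hardly differed. The members just inside it were chr7:50776826-50777654 and chr18:32791202-32791673 in the first group, with changes of 0.30 and -0.49 and of 0.48 and -0.30. The regions just outside, chr1:116750183-116750436 and chr14:31575451-31576138, had changes of 0.53 and -0.30 in each case. In the reverse group, chr7:11163679-11163983 and chr7:23703462-23703808 were just inside, the latter with changes of -0.30 and 0.30. Just outside were chr10:90031267-90031562, with -0.30 and 0.49, and chrX:68729569-68730024, with -0.58 and 0.30. All of these lie within rounding of the limit on their weaker side.

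The groups of regions differed in width, a property the rule did not use directly. Widths come from the peaks called in these same libraries, so they need not be independent of the values that chose the members. Regions higher after CCI and lower after CFA had a median width of 543 bp, with the middle 50% from 385 to 784 bp, close to the 549 bp of all regions. Regions lower after CCI and higher after CFA were narrower, with a median of 339 bp and the middle 50% from 270 to 481 bp. Widths of at most 250 bp made up 16.2% of the latter (29 regions), compared with 7.71% of the former (28 regions) and 7.05% of all regions. Widths of at least 1500 bp made up 0.559% (1 region), 3.86% (14 regions) and 2.85%. No test was made of these shares, and neighbouring regions are not independent.

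The extremes of width behaved like the rest. The widest member, chr17:11756636-11760696, was 4060 bp wide, which is also the largest width in the whole table. Its CCI values were 9.49 in replicate 1 and 10.01 to 10.10 in the others against naïve values of 9.49, 9.49 and 9.66, and its CFA values were 9.32 to 9.98 against a naïve mean of 10.04 ± 0.07 (SD, n = 3) in that table. The CFA libraries all lay below naïve, and CCI replicate 1 alone kept the CCI group from full separation. The narrowest member was chr2:194801307-194801464 (157 bp), with changes of 0.39 and -0.58. In the reverse group the widest was chr7:144013025-144014745 (1720 bp), a strongly accessible region at 10.24 ± 0.18 in naïve (SD, n = 3), with changes of -0.33 and 0.33. The narrowest was chr1:101688655-101688825 (170 bp). Its CCI values of 5.52 to 6.05 overlapped naïve values of 5.96 to 6.16 and its CFA values of 6.52 to 7.0 lay above the naïve values of 6.28 to 6.50, with changes of -0.36 and 0.37.

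Regions higher after CCI and lower after CFA were less accessible in naïve rats than regions in general, and the reverse group only slightly so. The naïve values also entered the rule, so these levels are descriptions. In the CCI table the median naïve value was 5.09 in the 363 regions and 5.32 in the 179, compared with 5.44 over all regions. Of the 363 regions 145 (39.9%) lay under the 25th percentile of all regions, and of the 179 regions 51 (28.5%). The latter share is close to the 25% that holds for all regions by definition. The values are per region and not per base, so the narrow regions lower after CCI held more signal for their length than their values show. Low regions rest on fewer reads, and the read counts behind the values were not used here.

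The 2 directions were spread differently over the genome. Regions higher after CCI and lower after CFA made up 14.5 per 1000 regions on chromosome 14 (31 regions), 13.2 on chromosome 9 (34 regions) and 11.7 on chromosome 2 (56 regions), compared with 6.39 per 1000 over all chromosomes and 0.877 on chromosome 10 (3 regions). Regions lower after CCI and higher after CFA were most frequent on chromosomes 12, 10 and 3, at 8.45, 6.72 and 6.27 per 1000 (13, 23 and 25 regions), compared with 3.15 over all chromosomes. They were rare on chromosome 4 at 0.599, on chromosome 2 at 0.838 and on chromosome 14 at 0.932. Chromosomes rich in one direction were thus poor in the other in the cases of 2, 10 and 14. Chromosome X held 6 and 5 of the regions and chromosome 20 held 5 and 7.

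**Figure D4:**
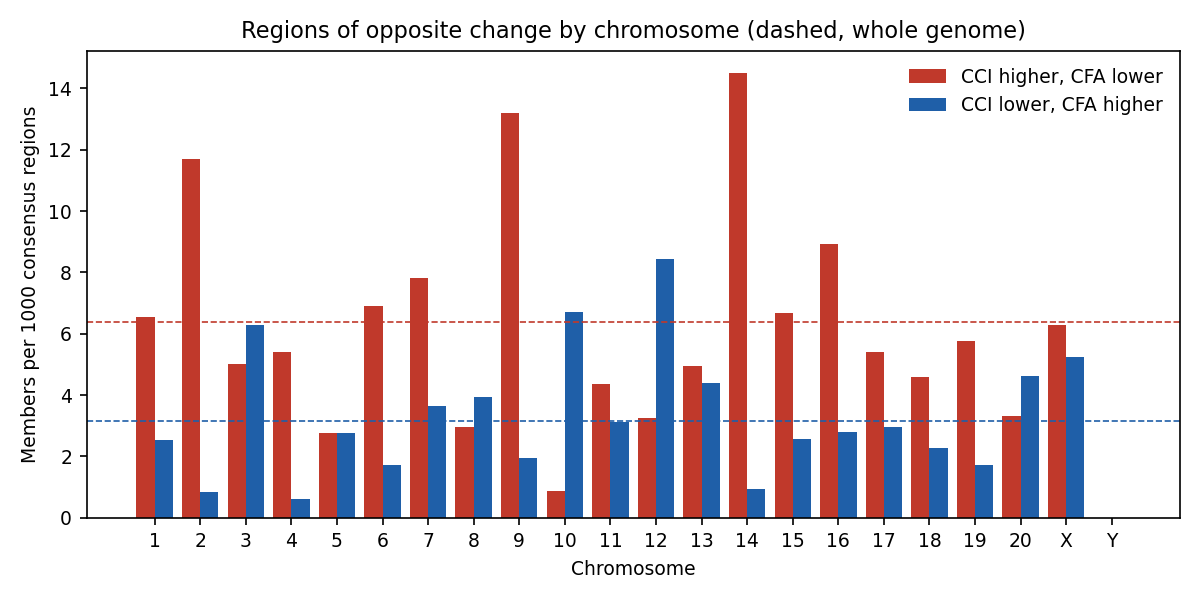
Regions of opposite change per 1000 consensus regions on each chromosome, in red for those higher after CCI and lower after CFA and in blue for the reverse, with dashed lines at the genome-wide 6.39 and 3.15. Red bars are tallest on chromosomes 14, 9 and 2, blue bars on 12, 10 and 3, and chromosome Y has none among its 11 regions.

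Some members of the same direction lay near one another. Runs of at least 3 members with gaps of at most 1 Mb numbered 31 in the group higher after CCI and held 159 of the 363 regions (43.8%). In the reverse group, 9 runs held 33 of the 179 regions (18.4%). Regions in general also lie close together. A neighbour within 10 kb was found for 54.9% of all regions, 58.4% of the 363 and 69.8% of the 179. The shares in runs have no counterpart over all regions here, so whether members cluster more than other regions was not tested. The run with the most members was on chromosome 1 from 147270327 to 149323316, where 15 of 83 regions were members. Next by number of members were runs on chromosome 9 from 8282800 to 9095049 (13 of 108 regions) and on chromosome 2 from 194110117 to 195294665 (12 of 80 regions). In the reverse group the runs with the most members were on chromosome 10 from 74873819 to 76338584 (6 of 76 regions) and on chromosome 3 from 7581517 to 8488040 (5 of 45 regions).

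Over all regions of the runs on chromosomes 1 and 9, members included, the CCI side was shared more than the CFA side. The rule fixed the signs of the members, so these counts and medians are descriptions. On chromosome 1, 79 of the 83 regions had a CCI change above 0, with a median of 0.73, whereas 50 had a CFA change below 0, with a median of -0.08. In the run on chromosome 9 the medians over all 108 regions were 0.75 and -0.02. Members there were regions of a broadly CCI-higher stretch whose CFA value also fell below the limit. The stretch on chromosome 1 was carried by the same libraries as the whole group. Over all its regions the median difference from naïve was 0.98, 1.34, 0.74 and 1.16 in CCI replicates 2, 3, 4 and 6 and 0.18 and 0.15 in replicates 1 and 5. Over its 15 members the CFA libraries were at -0.14, -0.05, -0.48, -0.90, -0.98 and 0.01, in the order a, b and replicates 3 to 6, so CFA replicates 4 and 5 lay lowest, as they did on chromosomes 15 and 8 above.

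The 15 members of that run had CCI changes from 0.40 to 1.11 and CFA changes from -0.59 to -0.32. Of them, 5 lay close together, at chr1:148622802-148623442 (0.49 and -0.54), chr1:148632744-148633685 (1.11 and -0.34), chr1:148641841-148642039 (0.85 and -0.50), chr1:148642662-148643198 (0.73 and -0.32) and chr1:148646003-148646449 (0.95 and -0.40), with the CCI change first. On chromosome 9 the 13 members had CCI changes from 0.33 to 0.84, the highest at chr9:8577105-8577572, and CFA changes from -0.56 to -0.31, the lowest at chr9:8493357-8493859.

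Over all regions of the run on chromosome 10, members included, the changes leaned to the side of the members in both models, though weakly. Of its 76 regions 62 had a CCI change below 0, with a median of -0.20, and 47 a CFA change above 0, with a median of 0.11. Its 6 members had a median CCI change of -0.49 and a median CFA change of 0.37. Every CFA library was on the same side over the 6 members, from 0.31 to 0.56, and CCI ran from -0.08 in replicate 1 to -0.84 in replicate 6. The most changed of them after CCI was chr10:75742686-75742979, with -0.68 and 0.37. In the run on chromosome 3 the 5 members ranged from -0.50 to -0.31 after CCI, and the medians over all 45 regions were -0.15 and 0.22.

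**Figure D5:**
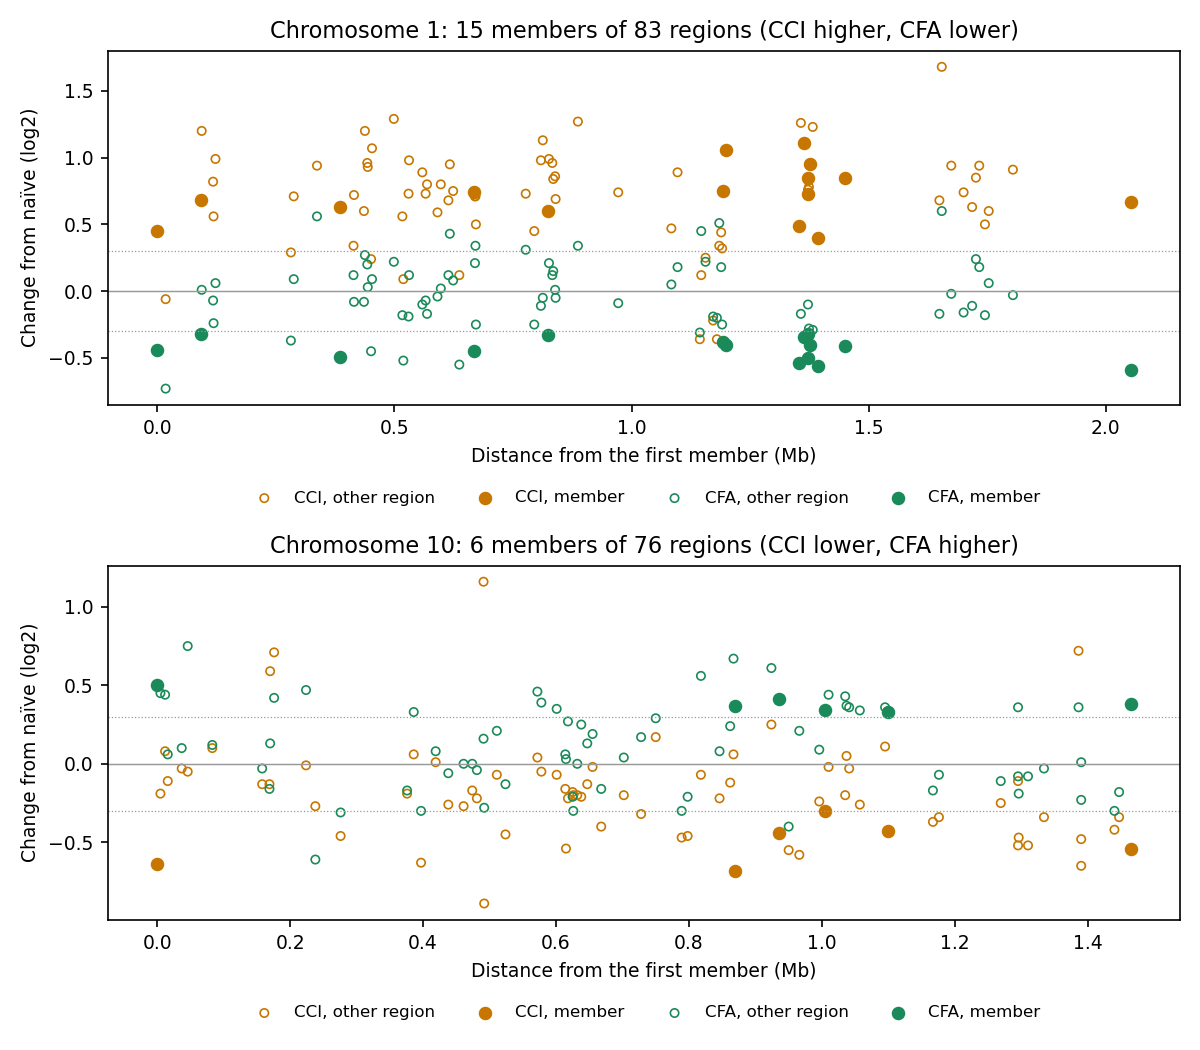
Change from naïve (log2) after CCI (orange) and after CFA (green) of every region inside the run with the most members of each direction, against the distance in Mb from its first member, with filled points for members. On chromosome 1, 79 of 83 regions lie above 0 after CCI while the CFA points scatter around 0, and on chromosome 10, 62 of 76 regions lie below 0 after CCI.

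The nearest neighbour of each member was also examined. A neighbour within 10 kb was found for 212 of the 363 regions, and its median change was 0.55 after CCI and -0.09 after CFA. Its CCI change had the sign of the member's in 192 cases (90.6%) and its CFA change in 137 (64.6%). Among all regions with a CCI change of at least 0.3, the neighbour had the same sign in 76.5%, and among all with a CFA change of -0.3 or lower in 64.4%. In the reverse group, with 125 such neighbours, it was the CFA side that was shared more. The median change of the neighbour was -0.10 after CCI and 0.24 after CFA, and the sign was the member's in 83 (66.4%) and 107 cases (85.6%). Over all regions with a CCI change of -0.3 or lower and with a CFA change of at least 0.3, the shares were 72.4% and 68.5%. In 26 and 2 cases the neighbour was itself a member of the same direction and in 0 cases a member of the other.

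The regions that the study lists by coordinates as shared between the models changed in 1 direction and are not among the members, but 4 members lay within 100 kb of one of them, all of them higher after CCI and lower after CFA. Of these, 3 lay near the region assigned to Msx2, a homeobox transcription factor gene. They were chr17:11756636-11760696, the widest member described above, chr17:11761148-11761429 (281 bp), with changes of 0.42 and -0.38, and chr17:11775062-11775532 (470 bp). At the last, the CFA values of 4.24 to 5.41 overlapped naïve values of 5.17 to 5.35 at replicate 6 only, and the CCI values of 5.17 to 6.08 all lay above naïve values of 4.95 to 5.12. Its changes were 0.43 and -0.53, with standard errors of 0.21 and 0.22. The fourth, chr12:3370862-3371433 (571 bp), lay near the region assigned to Clec4m, which encodes a C-type lectin receptor, and changed by 0.64 and -0.33 with standard errors of 0.29 and 0.15. Distance along the chromosome was the only link used, and no gene was assigned to the members here.

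RNA-seq counts were at hand for 2 CFA libraries only, so expression in the opposite direction was not tested. The labelled tissue was checked against its markers. Of 41 marker genes, 14 could be paired with an identifier, and the neuronal ones were abundant. The pairing used the study's lists of differentially expressed genes, so these markers are not a neutral choice. It took 10 of 12 sensory neuron markers, 2 of 6 of Schwann cells and 1 of 4 of satellite glia. Nefm and Nefl, which encode neurofilaments, had 11580 ± 8.37 and 9676 ± 162 CPM, the counts scaled to the library total (SD, n = 2), Prph, the peripherin gene of peripheral neurons, had 2022 ± 21.9 CPM and Scn10a, a sodium channel of nociceptors, 559 ± 26.4 CPM. The Schwann cell gene Mbp had 2035 ± 76.8 CPM, the gap junction gene Gja1 of satellite glia 39.7 ± 1.09 CPM and the fibroblast collagen gene Col1a1 512 ± 16.4 CPM, so the ganglia held glia and connective tissue beside neurons. Markers of macrophages and of skeletal muscle could not be paired and were not analysed here.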

How the data were processed

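ATAC-seq libraries of 6 CCI, 6 CFA and 3 naïve rats and RNA-seq libraries of 2 CFA rats were analysed, with groups, replicate numbers and sequencing runs taken from the sample labels. The authors aligned ATAC-seq reads to rn6 with Bowtie2, removed duplicates, shifted reads for the Tn5 offset, downsampled the libraries and called peaks with MACS2. The deposited values are log2 normalized coverage of each consensus region, in 1 table for each model with the naïve libraries, and within a table the columns share nearly 1 distribution. A region had to be called in enough libraries of a group to be listed. The authors deposited RNA-seq values as raw counts per Ensembl gene, aligned with HISAT2 and scaled here to CPM. Counts on genes were 10520647 and 28825688. The paper describes downsampling each ATAC-seq library to a fixed number of insertion sites, but the mean per sample that it gives is below that target. Whether depth was equal between the libraries was therefore not established, and the read counts behind single regions were not used here. The number of columns of per-sample values not used was 0.

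Changes were differences of group means within a table, and members met 0.3 in opposite directions. Each model was fitted against naïve over all 56810 regions with limma 3.58.1 in R 4.3.3 (two-sided, moderated variances, no block), at the unadjusted p of 0.001 that the study used, and p-values were also adjusted over all regions by Benjamini-Hochberg. The fit was tested on simulated data with independent noise and added changes larger than that of any member. That test therefore does not cover changes of the size seen in the members. Python 3.11.15 with numpy 2.4.6, pandas 2.3.3 and matplotlib 3.10.9 was used for tables and figures. Each library came from a separate rat.

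The members, lists, tests and alternatives were chosen with earlier results of these data known. Named for each direction were the 6 members with the largest smaller change, those with full separation in both models, the 3 with the lowest p per comparison, the 2 just inside and the 2 just outside the threshold, the widest and the narrowest, members of the 2 runs that hold the most members, and those within 100 kb of a region the study lists. Alternatives were thresholds of 0.2 and 0.5, group medians, joint normalization of the 15 libraries by rank, centring, a filter on low regions, the CCI libraries sequenced in 2 runs, an intensity trend, an adjusted p, a replicate block and leaving out each library. Gene symbols of markers were paired with identifiers through the study's supplementary tables of differentially expressed genes. Genes, genomic features and sequences of the regions need the rn6 genome and annotation and were not analysed here. The paper also names genes with higher expression after CCI and lower after CFA, and it links most of them to skeletal muscle. Those genes were not analysed here either.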

Additional observations from a re-analysis of the deposited data

Results flagged for a closer look

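In 8 of 166 groups of 6 libraries checked over the named regions, 1 library stood apart from the other 5 by more than a Dixon gap test allows at its 95% level, and chance alone gives about 1 in 20 such groups. CFA replicate 3 was low at 3 regions, with a value of 2.63 at chr4:54757565-54757872, 3.85 at chr11:61194189-61194682 and 4.17 at chr9:8762324-8762850. CCI replicate 5 was low at chr5:24717792-24720088, with 8.20, and high at chr7:123844764-123845014, with 4.76. CCI replicate 1 was low at chr17:11756636-11760696, with 9.49, and high at chr1:214893290-214893647, with 5.75. CCI replicate 4 was low at chr10:105350947-105351491, with 4.36. At all 4 regions where CCI replicate 1 or 5 stood apart, it lay on the naïve side of the other CCI libraries.

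In 31 of the 363 regions every CCI library lay above the naïve mean and every CFA library below it, and in 40 of the 179 regions the reverse held for all 12 libraries. These regions were selected for opposite changes, and the difference between the models was not tested.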

How the results depend on the processing

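The number of regions higher after CCI and lower after CFA was 363, and 179 had the reverse pattern. Thresholds of 0.2 and 0.5 gave 1135 and 22 regions for the first and 991 and 3 for the second. Without the lowest 25% of regions the first count was 218, with centred changes the second was 112, and with only the CCI libraries sequenced in 2 runs the second was 406, of which 84 were among the 179. Group medians gave 459 and 203 regions, but only 186 and 83 of these were among the members. Joint normalization of all libraries gave 297 and 143, of which 293 and 141 were members. Leaving out each library in turn gave 289 to 518 and 144 to 265 regions, with 165 to 356 and 75 to 165 of the members kept. The fewest members were kept when a naïve library was left out. Without naïve replicate 1, 2 or 3, these were 228, 165 and 230 of the 363 and 100, 75 and 87 of the 179. Without any single CCI or CFA library, at least 259 and 120 were kept. Membership thus depended most on the naïve libraries, which enter both changes.

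Members with an unadjusted limma p below 0.001 numbered 1 after CCI and 5 after CFA. Over all regions 517 and 637 passed. An intensity trend gave 7 and 15 members (1194 and 2365 of all regions), an adjusted p of 0.05 gave 0 and 0 (9 and 0), and the CCI libraries sequenced in 2 runs gave 2 after CCI (127). Leaving out single libraries gave 0 to 6 after CCI and 2 to 6 after CFA. The count after CCI was 0 without naïve replicate 1 or 3, 6 without CCI replicate 1 and 5 without CCI replicate 5, and that after CFA was 2 without CFA replicate 3. The deviations of same-numbered CCI and naïve libraries correlated at -0.06, 0.07 and -0.03. These values gave no sign of pairing but cannot exclude it, since there were only 3 such pairs. The label numbers of the CCI libraries also differ from the numbers in their column names, so the match by number may be arbitrary. A fit with the replicate block gave 2 members after CCI, and 384 over all regions. No paired analysis was possible for CFA because the labels number CFA and naïve samples alike but only replicate 3 of the shared numbers could be matched to a column of the CFA table. The read counts behind single regions, not used here, limit what can be said of the low regions.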
